A study of Mus musculus with 2 samples.

Results

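CTCF binding at 42 genes of the cell cycle and of DNA replication was examined in lung tissue of B6NCrl mice taken on postnatal day 0. CTCF binds DNA through its zinc fingers, recognises an extended motif and halts cohesin as it moves along chromatin. The genes were a fixed list, chosen with earlier results of these data known. All 42 were found by symbol among 21646 protein-coding genes of the GENCODE M21 annotation. They were sorted by role into 10 genes of replication licensing, 8 of the replication fork, 13 of G1 and the G1/S transition, and 11 of S/G2 and mitosis. ChIP-seq for CTCF gave 1 group of 2 replicates, numbered 1 and 2. The labels call them biological replicates but give them 1 shared biosample and donor, so how they differ may be technical, and no other condition was analysed here. Sites were the 64732 peaks of the authors' optimal list on chromosomes 1 to 19 and X, thresholded by the irreproducible discovery rate (IDR). A gene had a promoter site when the summit of a listed peak lay within 1000 bp of the transcription start site (TSS) of one of its protein-coding transcripts. The tissue is a mixture of cell types, so a weak site in every cell and a strong site in few cells cannot be told apart.

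A cell copies its genome once per division because licensing and firing of replication origins are kept apart in time. In G1 the origin recognition complex, Cdc6 and Cdt1 load the Mcm2-7 ring onto DNA, and geminin (Gmnn) later blocks Cdt1 so that no origin is loaded again. At the start of S phase Cdc45 and the GINS complex join the ring to form the active helicase, and Pcna and the clamp loader (Rfc1) hold the polymerases on DNA. Cyclin D with Cdk4 or Cdk6 and cyclin E with Cdk2 inactivate Rb1 and free the E2F factors, which switch on the genes of S phase. Cyclins A and B with Cdk1, the Plk1 and Aurora kinases and the spindle checkpoint then carry the cell through mitosis.

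Of the 42 genes, 19 had a CTCF promoter site (45.2%, 95% Wilson interval 31.2% to 60.1%), against 39.8% of all protein-coding genes (8618 of 21646). The share was 6 of 10 (60%) among licensing genes, 2 of 8 (25%) among fork genes, 7 of 13 (53.8%) among G1/S genes and 4 of 11 (36.4%) among S/G2 and mitotic genes. The intervals of the 4 roles ran from 31.3% to 83.2%, 7.15% to 59.1%, 29.1% to 76.8% and 15.2% to 64.6%, and all of them held the share of all genes. They cover counting error only, and the genes were chosen with earlier results of these data known. The intervals therefore cannot decide whether a role differs from all genes. The strongest promoter site of a gene had a median pooled signal of 44.4 in the 19 genes and 72.2 in all 8618 genes with a site. Signal is the value that the authors' peak caller gave each peak, on a scale that the labels and file descriptions do not state.

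**Figure D1:**
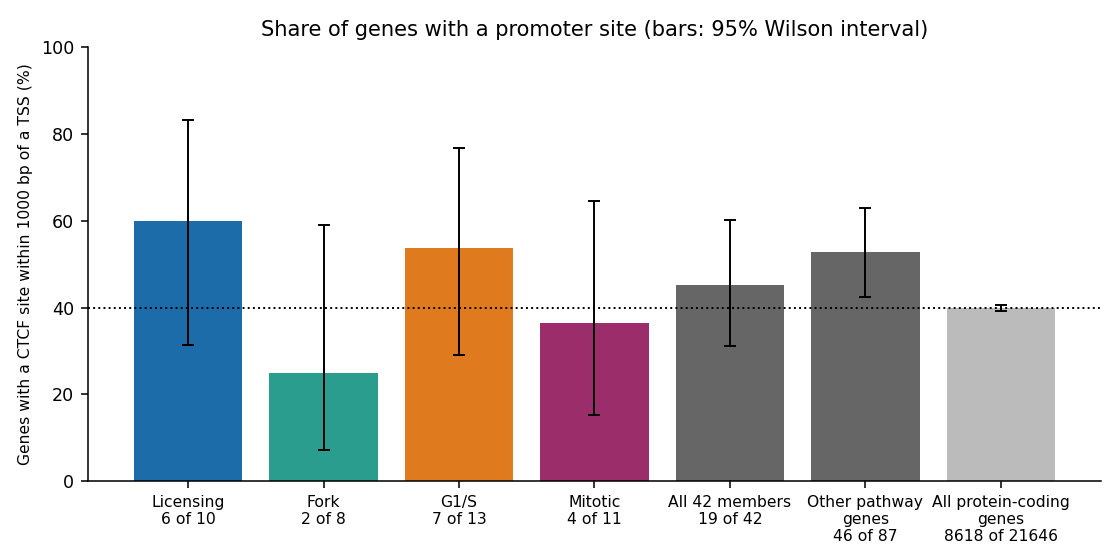
Percentage of genes with a CTCF site within 1000 bp of a TSS, by role, for all 42 genes, for other genes of the same pathways and for all protein-coding genes. Bars end at the share, error bars are 95% Wilson intervals (counting error only) and the dotted line marks 39.8%, the share of all protein-coding genes, which lies within the interval of each role. It lies below the interval of the other pathway genes. The 42 genes and the other pathway genes were chosen with results of these data known. The intervals therefore cannot decide whether such genes differ from all genes.

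The 19 genes carried 25 promoter sites, of which 6 had a pooled signal above 130 and the other 19 lay between 20.7 and 74.7. The 6 high sites were at Gins4, Mcm5, Ccna2, Cdk6, Cdc25a and Ccnb1, so that each of the 4 roles held at least 1. Among these 6 sites the replicates differed by at most 0.21 on the log2 scale. Over the 21 sites with a peak of both replicates within 100 bp of the summit, the absolute log2 ratio had a median of 0.33 (largest 2.87), against a median of 0.25 at 9789 of all promoter sites. Replicate 1 was the higher one at 12 of the 21 sites (57.1%), against 5972 of the 9789 (61%). Of all 25 sites, 10 reached the median pooled signal of all 10482 promoter sites (56.6), and 7 were absent from the authors' conservative IDR list. The 25 summits lay upstream of the nearest TSS at 11 sites and downstream at 14, and 21 were within 500 bp. The shares of all promoter sites by position, or absent from the conservative list, are not given here, so these counts only describe the 25 sites.

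**Figure D2:**
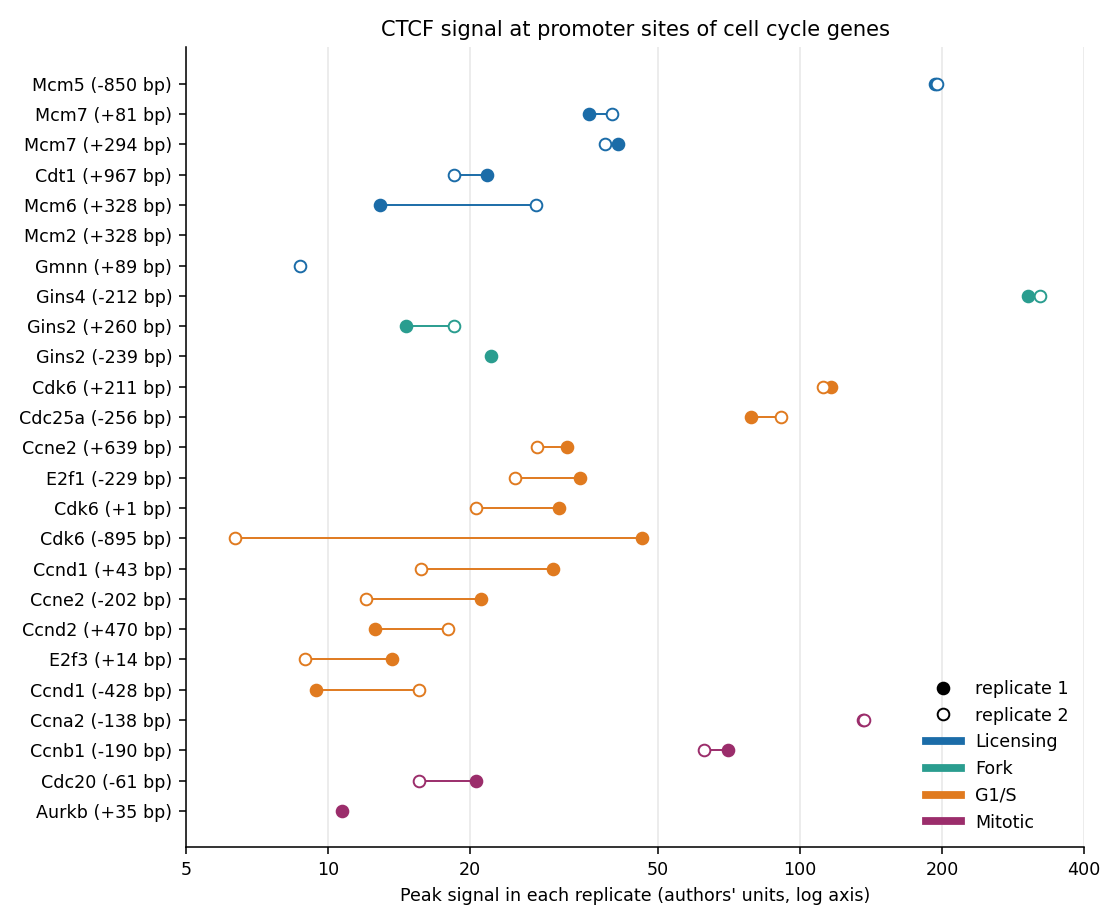
Peak signal in replicate 1 (filled) and replicate 2 (open) at the 25 promoter sites, by role and then by pooled signal, with the position of the summit from the nearest TSS in brackets; a missing point means no peak of that replicate within 100 bp. The sites at Gins4, Mcm5, Ccna2 and Cdk6 (+211 bp) stand above 100 in both replicates, and the widest gap is at Cdk6 (-895 bp), with 46.4 and 6.36.

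Among the licensing genes, Mcm5, a subunit of the ring-shaped replicative helicase, had by far the strongest site. Its signal was 193 in replicate 1 and 195 in replicate 2, at a summit 850 bp upstream of the TSS (chr8:75108586-75108855, mm10), between genes. Mcm7, another subunit, had a pair of sites, with 35.8 and 39.9 at the one 81 bp inside a TSS and 41.1 and 38.6 at the one 294 bp inside the outermost TSS. Cdt1, the loader that geminin restrains, had 21.7 and 18.5 at a site 967 bp inside the gene, close to the limit of 1000 bp. Mcm6 had 12.9 in replicate 1 and 27.6 in replicate 2, a log2 ratio of -1.09. The other sites of the role were weak and unevenly supported. The Mcm2 site had no peak of either replicate within 100 bp, the nearest lying 104 bp away in replicate 1 (signal 10.4) and 123 bp away in replicate 2 (19.4). The Gmnn site had 8.72 in replicate 2 and no peak of replicate 1 within 100 bp. Mcm2, Mcm6 and Gmnn had no promoter site in the conservative list, which left 3 of 10 licensing genes. With that list 38% of all protein-coding genes had one. Mcm3, Mcm4, Cdc6 and Orc1, the largest subunit of the origin recognition complex, had no promoter site.

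The fork genes held the strongest promoter site of all 10482, at Gins4, which encodes part of GINS, with 304 in replicate 1 and 323 in replicate 2. Its summit lay 212 bp upstream of the TSS, between genes (chr8:23237706-23238039). The other subunits did not follow it. Gins2 had weak sites to either side of its TSS, 1 of them 260 bp inside the gene with 14.7 and 18.5. The other, 239 bp upstream, had 22.2 in replicate 1 and no peak of replicate 2 within 100 bp, and lay in an exon of the non-coding gene Gm10614. Gins1 and Gins3 had no promoter site, nor had Mcm10 and Cdc45, which act in forming the active helicase, Pcna, the sliding clamp, or Rfc1, the large subunit of its loader.

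Among the G1/S genes the site with the highest signal was at Cdk6, a partner kinase of the D cyclins. It lay in a coding exon, 211 bp inside an annotated TSS (chr5:3344448-3344626), with 116 in replicate 1 and 112 in replicate 2. Cdk6 had 2 more sites, of 30.9 and 20.6 at 1 bp from another TSS and of 46.4 and 6.36 at 895 bp upstream of a further TSS. All 3 lay more than 1000 bp inside the outermost 5′ end of the gene, and with 1 TSS per gene Cdk6 had no promoter site. Cdc25a, a phosphatase that activates cyclin-dependent kinases, had 78.9 and 91.3 at a summit 256 bp upstream of its TSS (chr9:109875253-109875409). E2f1, a transcription factor that drives entry into S phase, had 34.2 and 24.9 at 229 bp upstream. Ccne2, a cyclin E gene, had 32.0 and 27.8 at 639 bp inside a TSS and 21.1 and 12.1 at 202 bp upstream. Ccnd1, the gene of cyclin D1, had 30.03 and 15.7 at 43 bp inside its TSS and 9.42 and 15.6 at 428 bp upstream. The log2 ratio of replicate 1 to replicate 2 was 0.93 at the first of these sites and -0.73 at the other. Ccnd2, another D cyclin, had 12.6 and 18.0, and E2f3, a second E2F activator, had 13.7 and 8.96 at an internal TSS. No promoter site was listed for Ccnd3, Ccne1, Cdk2, Cdk4, E2f2 or Rb1, the retinoblastoma gene that restrains E2F.

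Of the S/G2 and mitotic genes, Ccna2, the gene of cyclin A2, had the strongest site, with 136 in each replicate at 138 bp upstream of the TSS (chr3:36572165-36572404). Ccnb1, the gene of cyclin B1, had 70.4 in replicate 1 and 62.6 in replicate 2 at 190 bp upstream (chr13:100786705-100786835). Cdc20, an activator of the anaphase-promoting complex, had 20.6 and 15.6 at 61 bp upstream. Aurkb, a kinase of the chromosomal passenger complex, had 10.7 in replicate 1 and no peak of replicate 2 within 100 bp, and it was absent from the conservative list. The sites at Ccna2, Ccnb1 and Cdc20 all lay between genes, just upstream of the TSS. The remaining 7 genes had no promoter site. They were Ccnb2, Cdk1, Plk1, Aurka, Bub1, Mki67 and Top2a, among them the marker of proliferating cells (Mki67) and the topoisomerase of mitotic chromosomes (Top2a).

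The DNA at 5 of the sites described above is shown because they differ in how closely they match the CTCF motif although 4 of them were among the 6 strongest. Each line gives 61 bases of the GRCm38 (mm10) assembly around the best match to a CTCF frequency matrix of 20 positions, and the capitals mark that match. The matrix was made from 3858 strong sites away from promoters, and lines are written on the strand of the match.
Mcm5, chr8:75108697-75108757, minus strand: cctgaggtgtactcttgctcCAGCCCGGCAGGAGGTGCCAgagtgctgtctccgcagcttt
Cdk6, chr5:3344518-3344578, plus strand: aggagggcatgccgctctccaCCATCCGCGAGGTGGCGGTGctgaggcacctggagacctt
Cdc25a, chr9:109875281-109875341, plus strand: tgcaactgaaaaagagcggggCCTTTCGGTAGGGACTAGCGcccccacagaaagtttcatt
Ccnb1, chr13:100786718-100786778, minus strand: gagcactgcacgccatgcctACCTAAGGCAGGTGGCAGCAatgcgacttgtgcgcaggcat
E2f1, chr2:154570070-154570130, plus strand: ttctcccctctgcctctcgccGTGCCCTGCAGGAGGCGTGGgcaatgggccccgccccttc

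Few of the 25 sites carried a close match to the motif. The 12-base core of the CTCF motif was searched on both strands within 50 bp of the summit, and it was found with at most 1 mismatch at 1 of 25 sites (4%), against 20.6% of all 10482 promoter sites. That 1 site was the Ccnd1 site 43 bp inside the TSS. With up to 2 mismatches, 8 of 25 sites held the core. At 7 of them the best match had exactly 2 mismatches. It had exactly 2 at 3157 of all 10482 promoter sites, besides the 2155 with at most 1. The flank windows 1000 bp to either side of the same summits held the core with at most 1 mismatch in 2 of 50 cases. Flank windows of all promoter sites held it in 257 of 20964 cases (1.23%). A score by the frequency matrix, a measure added after the data were seen, passed the level that 1% of flank windows reach (12.04) at 4 of 25 sites (16%), against 24.7% of all promoter sites. These were the sites of Gins4 (score 15.7), Gins2 239 bp upstream (15.7), Ccnd1 (14.2) and Cdk6 in the coding exon (12.4), and Ccna2 was just below at 11.8. In the highest of 4 equal groups of promoter sites by signal, 55.9% passed, and 2 of the 5 sites of the 42 genes in it did. In the groups of lower signal, in falling order, 0 of 5 (22.7% of all), 1 of 9 (13.8%) and 1 of 6 (6.56%) passed. The core with at most 1 mismatch was at 0 of 5 (44% of all), 0 of 5 (18.6%), 1 of 9 (13%) and 0 of 6 (6.6%). The shares over all 25 sites were not matched for signal. The Cdc25a site scored -5.21, and 99.4% of all promoter sites scored higher, although its signal was the fifth highest of the 25. Mcm5 scored 6.95, with 50.7% of promoter sites above it, and Ccnb1 scored 5.60.

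**Figure D3:**
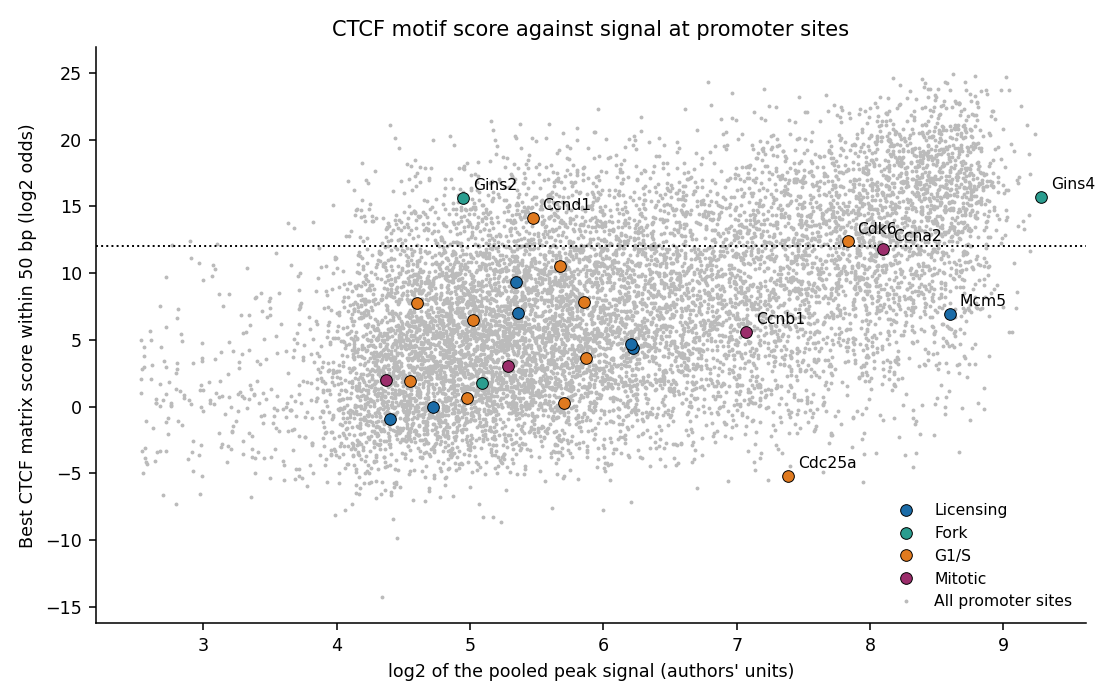
Best score of the CTCF frequency matrix within 50 bp of the summit against log2 of the pooled peak signal, for the 25 promoter sites coloured by role and for all 10482 promoter sites (small grey points). The dotted line marks 12.04, the score that 1% of flank windows reach; 4 of the coloured points lie above it, and the Cdc25a site lies near the lower edge of the cloud at -5.21.

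Of the 42 genes, 6 (14.3%) shared a promoter with a divergent protein-coding gene, meaning a TSS on the opposite strand at most 1000 bp upstream, against 9.94% of all protein-coding genes. The pairs were Mcm4 with Prkdc, a DNA repair kinase (489 bp between the starts), Mcm7 with Ap4m1, an adaptor protein subunit (184 bp), and Orc1 with Prpf38a, a splicing factor (118 bp). The others were Cdc45 with Ufd1, a cofactor in protein degradation (206 bp), Cdk2 with Pmel, a melanosome protein (150 bp), and Aurka with Cstf1, a factor of mRNA 3′ end formation (146 bp). Only the Mcm7 pair had a CTCF site, and its pair of summits lay within 1000 bp of starts of both genes. One of them was 294 bp from a TSS of Mcm7 and 123 bp from the nearest of Ap4m1. For the other 5 pairs, neither gene had a listed promoter site. Over all protein-coding genes, 59.3% of the 2152 with a divergent partner had a promoter site, and 37.7% of the 19494 without one. Among the 36 genes here with no divergent protein-coding partner, 18 had a site (50%). With replicate 2 taken alone, the 64732 highest peaks of replicate 2 included promoter peaks at Mcm4 and Cdk2. Divergent non-coding starts were annotated at 3 genes, namely Gins2 (Gm10614, 227 bp away), Pcna (AV099323, 43 bp) and Plk1 (Gm15489, 38 bp), of which Gins2 had a site. The share of all protein-coding genes with such a start is not given here, so this only describes the 3 genes.

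The 23 genes without a promoter site had their nearest listed site at a median of 7977 bp (range 1084 to 39875), against 12200 bp for all 13028 protein-coding genes without one. A pair of genes lay just beyond the limit. Ccnd3, a D cyclin, had a site 1084 bp inside a TSS with 119 in replicate 1 and 121 in replicate 2. Bub1, a kinase of the spindle checkpoint, had one 1107 bp upstream with 89.5 and 95.2. The genes closest to the limit on the other side were Cdt1 (967 bp) and Mcm5 (850 bp). Cdc6, the loading factor of origins, had a site 1697 bp inside the gene with 131 and 116. Cdk4 had its nearest site 5163 bp upstream, in a coding exon of the neighbouring gene March9, with 184 and 188. Aurka, a kinase of the spindle poles, had one 7977 bp upstream in an intron of Cstf1, with 127 and 133. That of Mki67 lay 19458 bp upstream, between genes, with 186 and 216. Each of these was stronger than most of the 25 promoter sites. At the far end were Orc1 (39875 bp), Gins3 (26721 bp) and Mcm4 (26180 bp), and Gins3 was the only one of the 42 with no site in the gene or the 25000 bp around it.

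**Figure D4:**
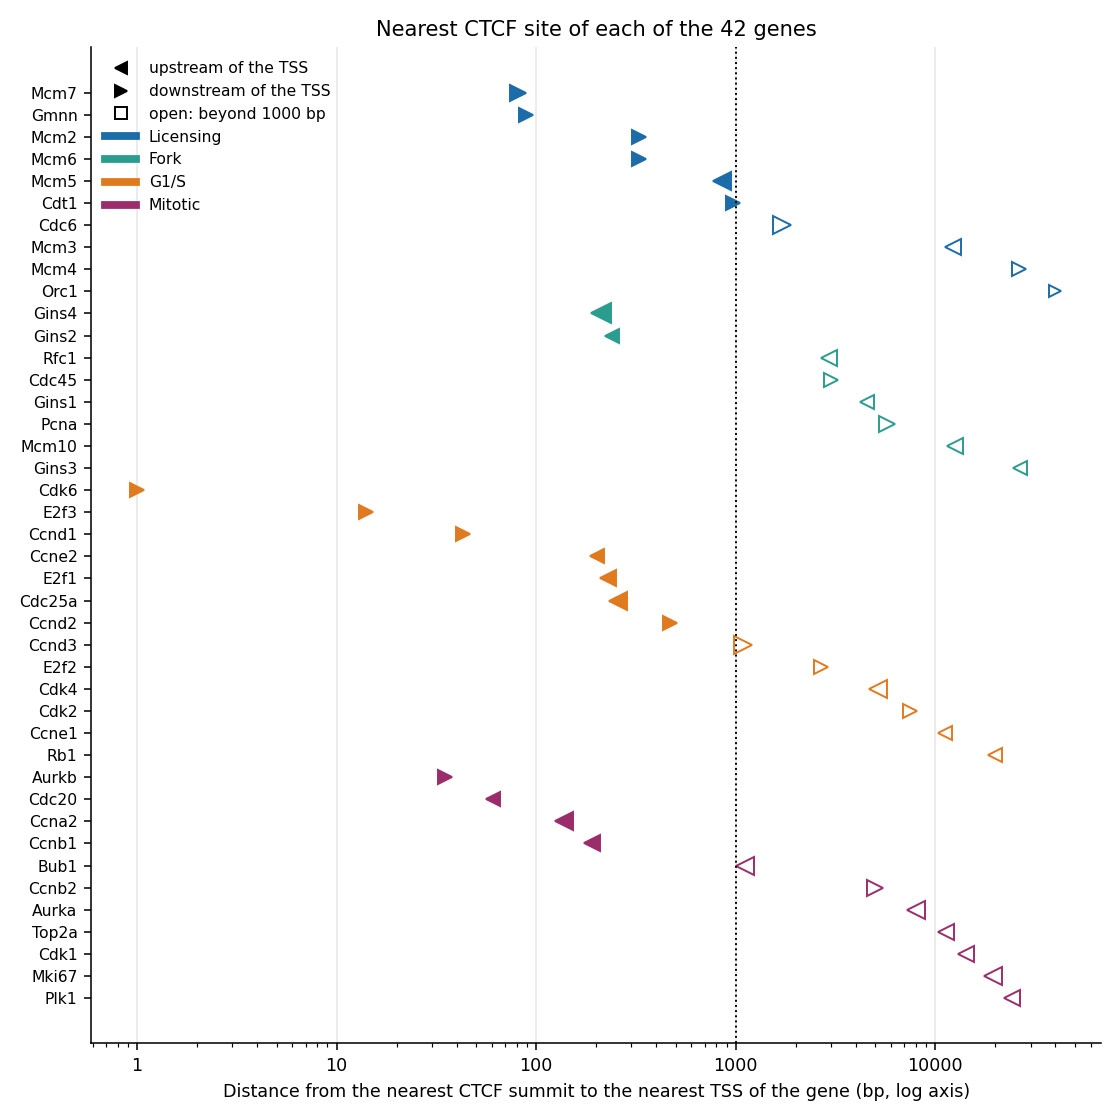
Distance from the nearest CTCF summit to the nearest TSS of each of the 42 genes on a log axis in bp, with triangles pointing left for upstream and right for downstream summits, and larger for a higher pooled signal. Filled symbols are the 19 genes within 1000 bp (dotted line), open ones the 23 beyond it, with Ccnd3 (1084 bp) and Bub1 (1107 bp) next to the line.

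Weaker peaks outside the optimal list lay at most of these 23 promoters. In the full lists of 300000 peaks per replicate, 18 of the 23 genes had a peak of each replicate within 1000 bp of a TSS (78.3%), against 38.6% of all protein-coding genes without a promoter site. These shares were not matched for promoter sequence. The observed over expected frequency of CpG had a median of 0.791 in the 23 genes and 0.328 in all genes without a site. Some counted peaks were near the bottom of the lists, as at Top2a, with 3.93 in replicate 1 and 3.24 in replicate 2. The highest was at Ccnd3, with 18.9 in replicate 1 and 14.0 in replicate 2. Plk1, a mitotic kinase, had 15.9 and 9.54, Mki67 had 12.2 and 9.28, and Mcm4 had 3.96 and 14.4. In the pooled list, the highest peak within 1000 bp had a signal between 6.38 and 30.4, and Mcm10 alone had no peak there in any of the 3 lists. These peaks are absent from the optimal list and were not counted as sites, although the conservative list holds a promoter peak at Ccnd3 and at Mki67.

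Promoters of these genes were rich in CpG, with or without a site. Within 500 bp of the outermost 5′ end, GC content had a median of 59.9% in the 19 genes with a site and 55.6% in the 23 without, against 59.2% and 51.5% in all protein-coding genes with and without a site. The observed over expected frequency of CpG had a median of 0.796 and 0.791 in these 2 groups, against 0.724 and 0.328 in all genes with and without a site. By GC content, 0 of 3 genes had a site from 45% to 50%, where 22.8% of all genes did, and 2 of 9 from 50% to 55%, against 36.4%. From 55% to 60% it was 8 of 15, against 50.9%, from 60% to 65% it was 7 of 10, against 59.4%, and at 65% and above it was 2 of 5, against 64.6%. The part of GC content in the shares by role was not tested.

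The short motifs in the promoters differed in frequency between the roles, with no test run. RefSeq promoters (GRCm38.p6, from 250 bases before to 50 after the start) were at hand for 31 of the 42 genes, in 35 windows. An E2F motif (TTCCCGC or TTGGCGC, both strands) was in 7 of 9 windows of licensing genes, 2 of 5 of fork genes, 4 of 12 of G1/S genes and 3 of 9 of mitotic genes, against 6.81% of all 32851 promoters. The cell cycle homology region (CHR, TTTGAA, both strands), through which the DREAM complex acts on genes of late phases, was in 1 of 9 licensing windows, 2 of 5 fork windows, 2 of 12 G1/S windows and 7 of 9 mitotic windows, against 17.9% of all promoters. A CCAAT box (CCAAT, both strands), the motif of NF-Y, was in 7 of 9 licensing windows, 5 of 5 fork windows, 6 of 12 G1/S windows and 9 of 9 mitotic windows, against 37.4%. In the 20054 of these promoters that belong to protein-coding genes, the E2F motif was in 9%, CHR in 15.2% and the CCAAT box in 37.9%. The windows with CHR all had a CCAAT box too (12 of 12), against 1225 of 3039 in promoters of protein-coding genes. Of all 35 windows here, 27 held a CCAAT box. Windows of genes with a CTCF site held the E2F motif in 8 of 13 cases and CHR in 3 of 13. Windows of genes without a site held them in 8 of 22 and 9 of 22 cases. The windows covered 11 of the 19 genes with a site and 20 of the 23 without. Motif frequency and site share both differed between the roles. The counts were not split by role, so they cannot link either motif to CTCF sites. A match of a short motif is no evidence of binding, and windows of the same gene are not independent.

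The 250 bases before the RefSeq start of 3 genes with a CTCF site show these arrangements, with E2F, CHR and CCAAT motifs in capitals. In Mcm5 the E2F motifs begin 164 and 149 bases before the start and the CTCF summit lies further upstream. In Cdc25a a pair of E2F motifs overlaps on opposite strands, beginning 66 and 63 bases before the start, and the CTCF peak reaches into the window from the upstream side. In Cdc20 the CHR begins 18 bases before the start between CCAAT boxes at 53 and 8 bases, and the CTCF summit lies in the window.
Mcm5, chr8:75109259-75109508, plus strand: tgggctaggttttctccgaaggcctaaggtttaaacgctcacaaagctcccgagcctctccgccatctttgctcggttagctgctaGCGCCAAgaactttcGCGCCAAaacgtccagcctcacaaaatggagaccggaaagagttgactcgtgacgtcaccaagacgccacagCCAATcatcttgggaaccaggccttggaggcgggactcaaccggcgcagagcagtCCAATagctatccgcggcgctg
Cdc25a, chr9:109875329-109875578, plus strand: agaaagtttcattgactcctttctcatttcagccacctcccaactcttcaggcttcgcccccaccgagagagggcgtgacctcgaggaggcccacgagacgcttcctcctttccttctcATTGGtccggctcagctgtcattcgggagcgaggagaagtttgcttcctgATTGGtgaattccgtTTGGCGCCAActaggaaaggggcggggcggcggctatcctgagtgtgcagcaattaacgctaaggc
Cdc20, chr4:118437344-118437593, minus strand: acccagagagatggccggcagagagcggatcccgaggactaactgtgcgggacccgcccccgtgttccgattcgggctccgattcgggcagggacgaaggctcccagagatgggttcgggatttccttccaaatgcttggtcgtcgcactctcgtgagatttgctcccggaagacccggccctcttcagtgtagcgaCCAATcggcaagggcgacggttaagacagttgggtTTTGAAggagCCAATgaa

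Inside the genes, CTCF sites were spread unevenly. The 42 genes held 60 sites over their length, or 5.17 per 100 kb, against 3.54 per 100 kb in all protein-coding genes. The share of genes with a site inside was 54.8% (23 of 42), against 56.5% of all protein-coding genes. It was 60% for licensing genes, 62.5% for fork genes, 69.2% for G1/S genes and 27.3% for mitotic genes (3 of 11). The mitotic genes also had the lowest median length of the 4 roles (13856 bp). The licensing genes held 14 (8.33 per 100 kb), the fork genes 6 (3.13), the G1/S genes 36 (5.72) and the mitotic genes 4 (2.34). Cdk6 held 7 sites, and Ccnd3, Cdc6 and Rb1 held 5 each although none of these 3 had a promoter site. Site counts include sites at the promoter, which weigh more in short genes. The median length was 14826 bp here and 17385 bp in all genes. The density divides all sites by all bases, so long genes weigh most in it. All protein-coding genes held 37728 sites over 1065973526 bp, and the 42 genes held theirs over 1160344 bp. The densities were not matched for gene length, so they do not show denser binding in these genes.

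Among 87 other genes of the same pathways, 46 had a promoter site (52.9%, Wilson interval 42.5% to 63%), against 39.8% of all protein-coding genes. Their strongest sites had a median pooled signal of 67.9, against 72.2 in all genes with a site. The list was chosen with results of these data known. The interval covers counting error only, so it cannot decide whether such genes differ from all genes. The share was 21 of 38 for replication genes (55.3%), 10 of 17 for G1/S genes (58.8%) and 15 of 32 for mitotic genes (46.9%). The highest signal was at Pold1, the catalytic subunit of DNA polymerase delta, with 229 in replicate 1 and 215 in replicate 2, at 152 bp upstream. Timeless, which protects the fork, had 170 and 162, and Rfc3, a small subunit of the clamp loader, had 166 and 156. Kif23, a kinesin of cytokinesis, had 165 and 142, and Rrm2, a subunit of ribonucleotide reductase, had 155 and 151. The replicates differed by at most 0.22 on the log2 scale at these 5 sites.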

How the data were processed

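CTCF ChIP-seq peaks of newborn mouse lung were used, in 1 group of 2 replicates. Per the labels the lists are on mm10; neither labels nor file descriptions name the aligner, the peak caller or the threshold of the IDR. Per the deposited descriptions, each replicate's list of 300000 peaks came from its alignments and 1 further file of unstated role, while the optimal list drew on these and on a pooled list. Peak signal was used as the authors deposited it. The −log10 q-value, also deposited by the authors, reaches 5.084 in the optimal list and was not used further. No read depth is given, so its effect on precision is unknown. Peaks on other contigs were left out (64732 of 64742 kept).

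Replicate values are those of the replicate's highest peak within 100 bp of a summit. TSSs came from GENCODE M21 and sequence from GRCm38 (pysam 0.24.0, samtools 1.23.1, pandas 2.3.3, scipy 1.17.1). The outermost 5′ end was used for GC content. The CTCF core was scanned in 101 bp windows. The matrix used the 5000 strongest sites outside promoters, where the core had at most 1 mismatch. Wilson intervals cover counting error only. No test was run, since 1 group offers no comparison of conditions and lists were described beside all genes. The core scan and the assignment of sites to TSSs were tested on simulated data. The matrix scan and the search for short promoter motifs were not tested in this way.

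The 42 genes and all lists were chosen with earlier results of these data known. All 42 are named, with genes sharing their promoters and the 5 strongest other pathway genes. The 5 printed sites and 3 promoters were chosen after their values were seen. RefSeq promoters were not at hand for Mcm4, Gmnn, Gins1, Gins2, Gins4, Ccnd1, Ccnd2, Ccne2, Rb1, Ccna2 and Aurkb. Alternatives covered 1 TSS per gene, other distances and motif settings, 1 replicate at a time, the conservative list and the 32366 highest optimal sites. The matrix and the need for both replicates were added after the data were seen.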

Additional observations from a re-analysis of the deposited data

How the results depend on the processing

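The count of 19 of the 42 genes with a promoter site was 17 with the conservative IDR list (40.5%, against 38% of all protein-coding genes). It was 20 with either replicate alone (47.6%, against 40.4% without replicate 1 and 40.3% without replicate 2). With TSSs within 500 bp it was 17 (40.5%, against 33.2%), and within 5000 bp it was 27 (64.3%, against 56.6%). With 1 TSS per gene it was 17 (40.5%, against 35.4%). With sites that have a peak of both replicates, a setting added after the data were seen, it was 16 (38.1%). The share of all genes is not given for that setting. Membership moved more than the count. Mcm2, Mcm6, Gmnn and Aurkb left with the conservative list while Ccnd3 and Mki67 entered, and E2f3 and Gmnn (without replicate 1) or Mcm2 and Aurkb (without replicate 2) left with 1 replicate alone. Licensing genes fell to 3 of 10 (30%) with the conservative list, where 38% of all protein-coding genes had a site. With the 32366 sites of highest signal, 6 of the 42 genes kept a site: 1 licensing, 1 fork, 2 G1/S and 2 mitotic. In that setting 10, 4 and 6 of the other replication, G1/S and mitotic genes did (20 in all), and 4157 of all protein-coding genes (19.2%), as fewer sites enter. Within 5000 bp, 5 of 8 fork genes (62.5%) and 23 of 32 other mitotic genes (71.9%) had a site, against 56.6% of all genes. In that setting the share was 70% for licensing, 69.2% for G1/S and 54.5% for mitotic genes of the 42. For other replication genes it was 76.3% and for other G1/S genes 88.2%. The core was at 0 of 25 sites with no mismatch (409 of all 10482 promoter sites), at 8 with up to 2 and at 4 by the matrix. The median of the replicates' mean signal was 26.4 over the 21 sites with a peak of both, against 22.8 (22 sites, without replicate 1) and 30.9 (23 sites, without replicate 2). The median distance of 7977 bp became 5167 to 7985 bp with 1 replicate left out. Of 88 alternatives, 70 stayed within 1.5 times the count or the spread between replicates. Depth is unknown, so a site not listed is not shown to be absent. No paired analysis was possible because there is 1 group.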

Other observations

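Cdc6, which acts in G1, and Top2a, which acts in mitosis, are neighbours on chromosome 11, with 69002 bp between them that hold Rara, a retinoic acid receptor, and Gjd3. This stretch held 12 CTCF sites, with pooled signals up to 383, although neither gene had a promoter site. No other pair of the 42 genes lay within 250000 bp of each other. The nearest site to Top2a lay 11352 bp upstream with 67.9 in replicate 1 and 70.6 in replicate 2. This stretch was chosen after its values were seen.

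Signal and motif score did not go together at every site. Cdc25a combined a signal of 78.9 and 91.3 with a matrix score of -5.21, and Mcm5 combined 193 and 195 with 6.95, while the upstream Gins2 site scored 15.7 with 22.2 in replicate 1 and no peak of replicate 2 within 100 bp. The cause was not tested.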
